A study of Mus musculus with 2 samples.

Results

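Alpl, Spp1, Ibsp, Dmp1, Bglap, Phospho1, Panx3 and Enpp1 are genes that act where cartilage turns to mineral and bone. Around them, 7 of the 35861 regions with more captured methylated DNA in the Control library than in that of Uhrf1 cKO chondrocytes were found. The genes were chosen by name, and their regions are all those that overlap the RefSeq span of a gene widened by 20 kb on each side. Alpl had 4 regions, Spp1 had 2 and Enpp1 had 1, whereas Phospho1, Ibsp, Dmp1, Bglap and Panx3 had none. Thus 3 of 8 genes (37.5%) had a region, against 65.4% of the 21887 protein-coding genes measured with the same window.

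The cells were primary chondrocytes of C57BL/6 mice, isolated by collagenase from knee cartilage on postnatal day 3. Both genotypes, Control and Uhrf1 cKO, spent 24 hours with rhBMP-2 at 100 ng/ml, so no untreated cells enter the comparison. Uhrf1 guides the maintenance methyltransferase to newly copied DNA, and cKO stands for a conditional knockout, whose Cre driver the labels do not name. DNA sheared to about 300 bp was enriched with MBD2, a protein that binds methylated CG, and sequenced (MBD-seq). With 1 library per genotype (9782276 Control and 15039206 cKO tags after duplicate removal), no difference has a replicate check and no p-value of a genotype effect was computed. Duplicate removal discarded 55.2% of Control and 23.9% of cKO tags, and the part of this difference in the regions was not tested. The list holds no RNA, so the chondrocyte label could not be set against marker genes.

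Each region has a count of Control tags. It also has a fold, which sets the Control tags at the summit against a background, in general what the cKO library predicts nearby. For a part of the regions with few tags, the fold instead matches a genome-wide Control mean as background, as given below for Alpl. The FDR gives the regions of at least that strength found with the libraries swapped, as a percentage of such regions in the list. Regions found on swapping have more cKO signal, and whether they are errors was not tested. The fold and FDR are the authors' own values, and describe regions within this list. The list is one-sided: regions with more cKO signal are not in it. A gene without a region may therefore have had equal signal, more cKO signal, little captured DNA in either library, or a difference too small for the p limit of 1e-10. Which of these holds was not tested.

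Mineral forms in cartilage when hypertrophic chondrocytes release vesicles in which phosphate is made and calcium gathers. Pyrophosphate outside the cell blocks crystal growth, and the balance of the enzymes that make and cleave it sets whether mineral appears. Acidic matrix proteins of the SIBLING family (small integrin-binding ligand N-linked glycoproteins) and osteocalcin then bind the crystals. Most of these genes are expressed late, in hypertrophic chondrocytes and osteoblasts.

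The starts of the genes were examined first, because methylated CG at a start is what the capture would detect there. RefSeq promoter windows (GRCm38.p6, the assembly of mm10; 250 bases before to 50 after a start) were found for 7 of the 8 genes, with 10 starts in all, and no window was found for Panx3. None of the 10 overlapped a region, and only 1.20% of all 32851 windows did. The motif counted was CG, which reads the same on both strands. It occurs at least once in 94.57% of windows, with a median of 7 per window. The 5 windows shown span the contrast among these genes, from many to few places where MBD2 could bind. Capitals mark CG, and each sequence runs 5′ to 3′ on the strand of its gene.
Phospho1 (chr11:95824250-95824549, plus strand, 42 CG): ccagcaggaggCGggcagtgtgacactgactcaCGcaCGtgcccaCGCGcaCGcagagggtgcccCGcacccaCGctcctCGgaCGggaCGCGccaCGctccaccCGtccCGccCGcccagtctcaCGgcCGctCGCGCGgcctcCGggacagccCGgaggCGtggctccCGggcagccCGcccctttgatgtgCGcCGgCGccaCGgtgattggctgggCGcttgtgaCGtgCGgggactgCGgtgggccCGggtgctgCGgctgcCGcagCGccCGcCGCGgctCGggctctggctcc
Alpl, upstream start (chr4:137796335-137796634, minus strand, 26 CG): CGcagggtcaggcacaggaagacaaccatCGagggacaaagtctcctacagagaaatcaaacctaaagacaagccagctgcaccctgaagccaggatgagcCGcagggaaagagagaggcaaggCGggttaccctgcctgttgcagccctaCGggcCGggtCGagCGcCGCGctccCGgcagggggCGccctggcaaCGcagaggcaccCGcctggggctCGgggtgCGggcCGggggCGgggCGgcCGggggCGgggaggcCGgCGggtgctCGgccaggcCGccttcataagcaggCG
Alpl, downstream start (chr4:137766426-137766725, minus strand, 4 CG): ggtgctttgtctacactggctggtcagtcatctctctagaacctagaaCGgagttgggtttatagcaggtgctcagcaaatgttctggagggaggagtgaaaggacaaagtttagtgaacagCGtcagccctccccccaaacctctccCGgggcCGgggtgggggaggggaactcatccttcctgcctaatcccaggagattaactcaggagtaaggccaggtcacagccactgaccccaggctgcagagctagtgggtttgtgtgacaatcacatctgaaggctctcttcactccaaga
Bglap (chr3:88384417-88384716, minus strand, 4 CG): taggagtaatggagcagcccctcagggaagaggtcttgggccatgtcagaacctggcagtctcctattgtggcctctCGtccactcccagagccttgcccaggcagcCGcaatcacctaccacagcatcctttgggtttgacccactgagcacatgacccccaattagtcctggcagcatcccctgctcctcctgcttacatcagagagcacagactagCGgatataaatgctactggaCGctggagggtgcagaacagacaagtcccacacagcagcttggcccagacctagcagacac
Spp1, upstream start (chr5:104434861-104435160, plus strand, 3 CG): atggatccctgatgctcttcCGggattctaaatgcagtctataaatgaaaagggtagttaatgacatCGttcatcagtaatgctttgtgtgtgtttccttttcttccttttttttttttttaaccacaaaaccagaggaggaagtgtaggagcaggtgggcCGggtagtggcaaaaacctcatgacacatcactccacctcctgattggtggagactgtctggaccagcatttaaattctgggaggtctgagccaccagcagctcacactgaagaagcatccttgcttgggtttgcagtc

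The windows fell into 2 kinds. Phospho1, the upstream start of Alpl and Enpp1 (22 CG) were rich in CG, and 97.0%, 83.1% and 76.9% of all windows, respectively, had fewer. The other 7 windows, of Alpl (downstream start), Spp1 (both starts), Ibsp, Dmp1 (both starts) and Bglap, had 3 to 7. Over the whole table, a region overlapped 3.14% of windows with 6 to 14 CG, 0.79% of those with at most 5 and 0.483% of those with 15 or more. Of the 10 windows of the mineralization genes, 1 lay in the middle class, the upstream start of Dmp1 with 7 CG. An absence of regions at these starts is thus what most starts of either kind showed.

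**Figure D1:**
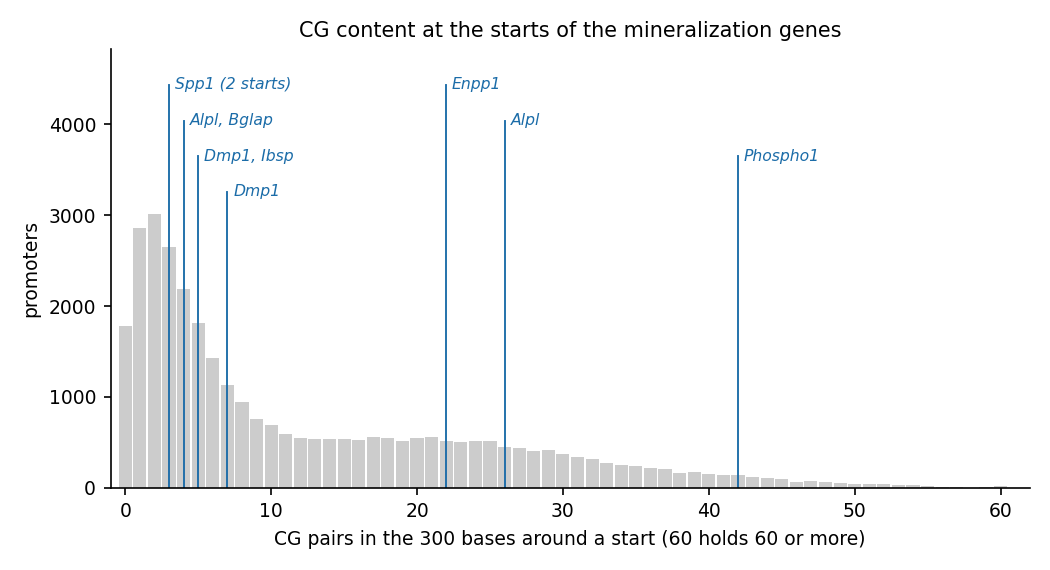
Number of CG pairs in 300 bases around a start (x axis) for all promoter windows (grey bars, y axis: number of windows), with the 10 windows of 7 mineralization genes as blue lines. Phospho1, Enpp1 and the upstream start of Alpl stand at 22 to 42 CG, and the other 7 windows at 3 to 7.

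Alpl encodes tissue-nonspecific alkaline phosphatase, which cleaves pyrophosphate and frees phosphate for mineral. It spans chr4:137741731-137796384 (mm10, 54.65 kb, minus strand) and was the gene with the most regions of the 8. Per 100 kb of window, however, Spp1 had 4.35 regions and Alpl 4.23. The region with the largest fold, chr4:137758705-137759135, had 59 Control tags (95% exact Poisson interval 44.9 to 76.1, for counting error only), a fold of 57.12 and an FDR of 0.02%. Its fold exceeded that of 99.1% of the list, and its tag count that of only 24.9%. A second region beside it, chr4:137760725-137761164, had 131 tags (110 to 155), a fold of 13.56 and an FDR of 0.08%. Both lay inside the gene, past the downstream start printed above, with summits 7.62 and 5.58 kb beyond it and 37.5 and 35.5 kb from the upstream start. The gene table gives no exons, so whether they lie in exons or introns was not analysed here.

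The remaining Alpl regions were thin. At chr4:137747326-137747464, within the gene and 48978 bp from its upstream start, 11 tags (5.49 to 19.7) gave a fold of 32.96 with an FDR of 100%. No region of the list had fewer than 11 tags, a count shared by 149 regions. The fold of 32.96 equals 10 tags over 0.303, the mean number of kept Control tags per 58 bp (the caller's fragment shift d) of the effective genome, within 0.005 in fold. The same whole-number relation held for 52.8% of the 2238 regions with at most 20 tags and for 5.71% of the whole list, and for no other region of these genes. The fold of 32.96 can thus be had from Control tags alone, and need not measure cKO signal nearby. The fourth region, chr4:137814923-137815227, lay 18539 bp upstream, in no annotated gene, with 38 tags (26.9 to 52.2), a fold of 13.96 and an FDR of 80.49%. Alpl thus had 2 regions of low FDR, side by side within the gene, and 2 elsewhere with FDRs of 80.49% and 100%.

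Enpp1 works against Alpl: it encodes the membrane enzyme that makes pyrophosphate from ATP. The gene, chr10:24637914-24712159 (74.25 kb, minus strand), held no region. Its only region, chr10:24632612-24633209, lay 4.71 kb past the gene's downstream end and in no annotated gene. It had 128 tags (107 to 152), a fold of 11.98, close to the list's median of 12.18, and an FDR of 0.2%. The next region outside the window was 69.6 kb downstream. Alpl and Enpp1 therefore differed in where regions lay, with 3 within Alpl and none within the longer Enpp1. The 3 include the 11-tag region with an FDR of 100%. Surroundings differed as well, with 58 regions in 1 Mb centred on Alpl and 16 in that centred on Enpp1.

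Phospho1 encodes a phosphatase that frees phosphate from phosphocholine inside matrix vesicles. No region lay in its window around chr11:95824500-95832140 (7.641 kb, plus strand). The nearest, chr11:95855257-95855920, was 23.1 kb downstream and so just outside, with 106 tags, a fold of 7.76 and an FDR of 44.42%. Of the 5 regions between 20 and 50 kb, the upstream pair within Gm38957, a long noncoding RNA, had folds of 14.61 (293 tags) and 33.53 (111 tags), each with an FDR of 0%. Downstream, the glycosyltransferase gene B4galnt2 held a region of 229 tags at 13.42-fold (FDR 0%) and one of 87 tags at 6.68-fold (FDR 100%). The surroundings of Phospho1 were dense, with 45 regions in 1 Mb centred on the gene against a median of 18 for protein-coding genes.

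**Figure D2:**
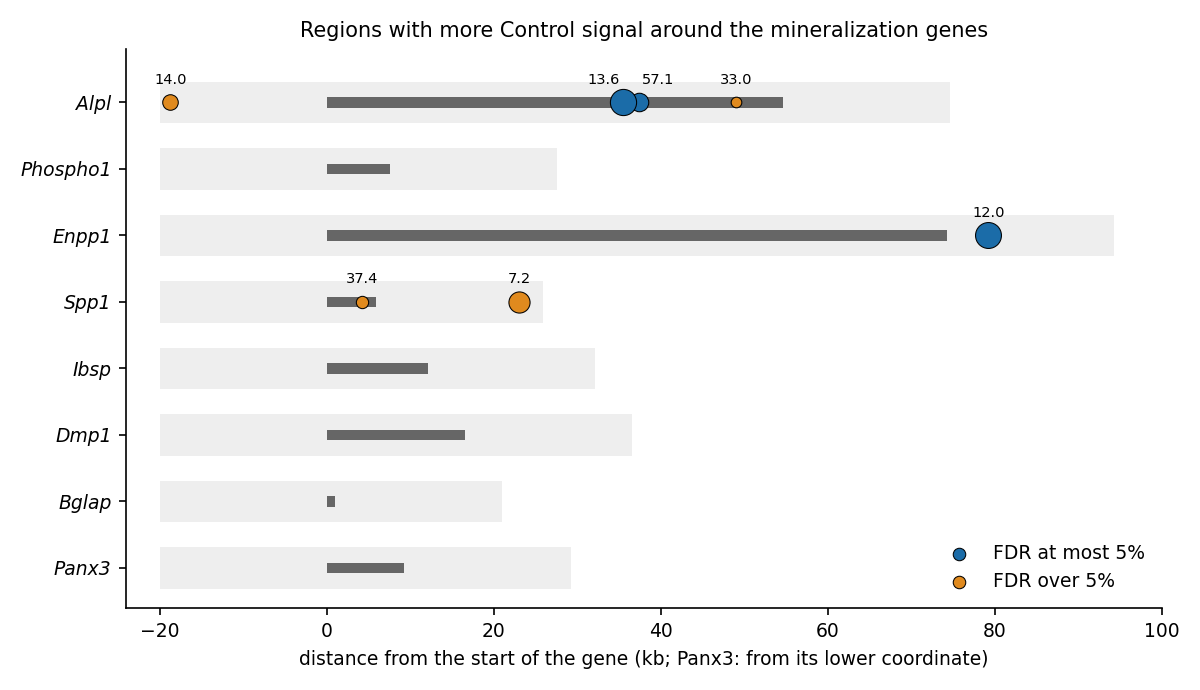
Regions with more Control signal (circles, area rising with the Control tag count, number above: fold) along each gene (dark bar) and 20 kb on each side (pale bar), with distance from the gene's start in kb on the x axis and genes as rows. Alpl carries 4 regions, Spp1 2 and Enpp1 1, and blue marks the 3 with an FDR of at most 5%.

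Spp1 encodes osteopontin, a SIBLING protein that binds crystals and cells through integrins. It spans chr5:104435111-104441053 (5.943 kb, plus strand). A region at chr5:104439272-104439465 lay within the gene, with its summit 4.25 kb from the upstream start and 3.17 kb past the downstream one. It had 19 tags (11.4 to 29.7), a fold of 37.42 and an FDR of 50.6%. The fold exceeded that of 95.2% of the list, whereas only 5.05% of regions had fewer tags. The second region, chr5:104457977-104458373, lay 16924 bp downstream within Pkd2, the polycystin 2 gene, and had 81 tags (64.3 to 101), a fold of 7.22 and an FDR of 100%. Neither Spp1 region had a low FDR. Just outside the window, 2 further regions within Pkd2 had FDRs of 3.1% and 0.12% and folds of 38.49 (34 tags) and 37.8 (55 tags).

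Ibsp (bone sialoprotein, which starts crystals) and Dmp1 (dentin matrix protein 1, also a regulator of phosphate balance in bone cells) lie in the same gene cluster as Spp1 and had no region. Ibsp spans chr5:104299287-104311472 and its nearest region, 128 kb away, was the one within Spp1. Dmp1 spans chr5:104197575-104214102 and its nearest region, chr5:104092339-104092672 within Sparcl1, was 105 kb upstream, with 38 tags, a fold of 37.63 and an FDR of 2.77%. The cluster also holds Dspp (dentin sialophosphoprotein) and Mepe (matrix extracellular phosphoglycoprotein), which had no region in their windows either. From the start of Dspp to the end of Spp1, 270.4 kb, the 19-tag region in Spp1 was the only one. The stretch free of regions that runs through Dspp, Dmp1, Ibsp and Mepe into Spp1 was 346.6 kb long. Of the 35840 gaps between neighbouring regions in the list, 3.93% were longer, as were 2.49% of those on chromosome 5, where the median gap was 19.8 kb. These shares count gaps. Long gaps cover more sequence than short ones, so the shares do not give how often a gene lies in such a stretch. The stretch was also singled out because its genes had no region. The region counts of these genes therefore share 1 stretch and are not separate observations. Within 1 Mb centred on the gene, however, Dmp1 had 26 regions, Ibsp 22 and Spp1 19, all above the median of 18.

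Bglap encodes osteocalcin, a vitamin K-dependent protein that osteoblasts secrete into bone. The gene is short (chr3:88383495-88384466, 0.972 kb, minus strand) and so had the smallest window, 40.97 kb, in which no region lay. The nearest, chr3:88357092-88357481 within Smg5, was 26.0 kb downstream, with 58 tags, a fold of 10.34 and an FDR of 61.96%. Bglap2 and Bglap3, neighbouring copies of the gene, span 15.85 kb together with Bglap, and no region lay in this stretch. How reads that match more than 1 copy were treated is not given in the sources used here, and its part in the empty window was not tested. Farther out, at 35.7 kb upstream, Slc25a44 held a region of 352 tags at 15.17-fold (FDR 0%), and 1 Mb centred on Bglap held 47 regions.

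Panx3 encodes a pannexin channel of prehypertrophic chondrocytes and osteoblasts that releases ATP. Its window around chr9:37659902-37669222 (9.321 kb) was empty, and so were most of its surroundings. The nearest region, chr9:37611559-37611906 within Spa17, was 48.0 kb below the gene's lower coordinate, with 30 tags, a fold of 8.39 and an FDR of 100%. Only 6 regions lay in 1 Mb centred on the gene, and 13.6% of protein-coding genes had fewer.

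**Figure D3:**
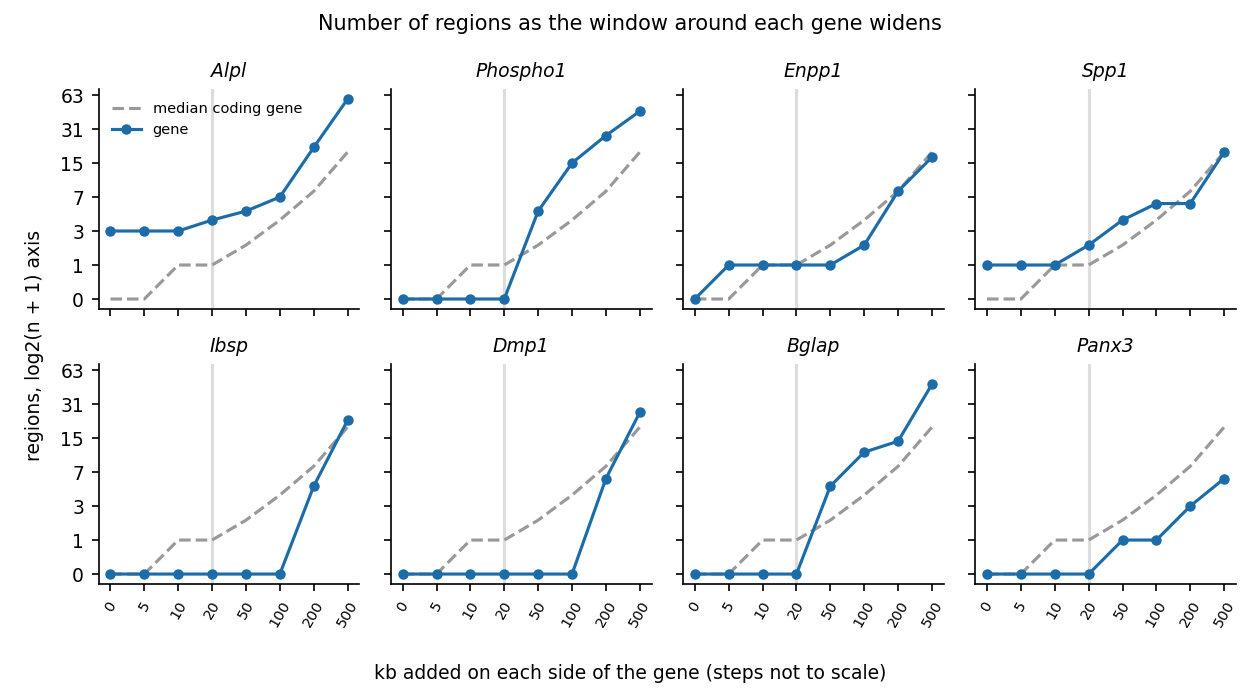
Number of regions (y axis, log2 of the number plus 1) in each gene's span widened by 0 to 500 kb on each side (x axis, steps not to scale), in blue, with the median of all protein-coding genes as a dashed grey line. Phospho1 and Bglap go from 0 regions at 20 kb to 5 at 50 kb, whereas Ibsp and Dmp1 have none up to 100 kb.

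The genes without a region were thus of 3 kinds. Phospho1 and Bglap lay in dense surroundings, and each reached 5 regions when the window was widened to 50 kb, against a median of 2 for protein-coding genes. Ibsp and Dmp1 had none up to 100 kb, where the median gene had 4, but 22 and 26 within 500 kb, where the median was 19. Panx3 had 1 region within 100 kb and 6 within 500 kb. At the other end, Alpl had 58 regions in 1 Mb centred on the gene, and 98.1% of protein-coding genes had fewer.

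By tag count none of the 7 regions stood near the top of the list: at most 61.7% of listed regions had fewer tags than one of them, whereas up to 99.1% had a lower fold. Their folds ran from 7.22 to 57.12 with a median of 13.96, beside 12.18 for the list. Their tag counts ran from 11 to 131 with a median of 59, beside 103, and their lengths from 139 to 598 bp with a median of 397, beside 475. An FDR of at most 5% was listed for 3 of the 7, beside 56.9% of the list, and one of 100% for 2 of the 7, beside 16.2%. The 2 thinnest regions, with 11 and 19 tags, had the largest folds after that of 57.12, at 32.96 and 37.42. Among all regions with at most 20 tags the median fold was 26.37, so a large fold here does not go with many tags.

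**Figure D4:**
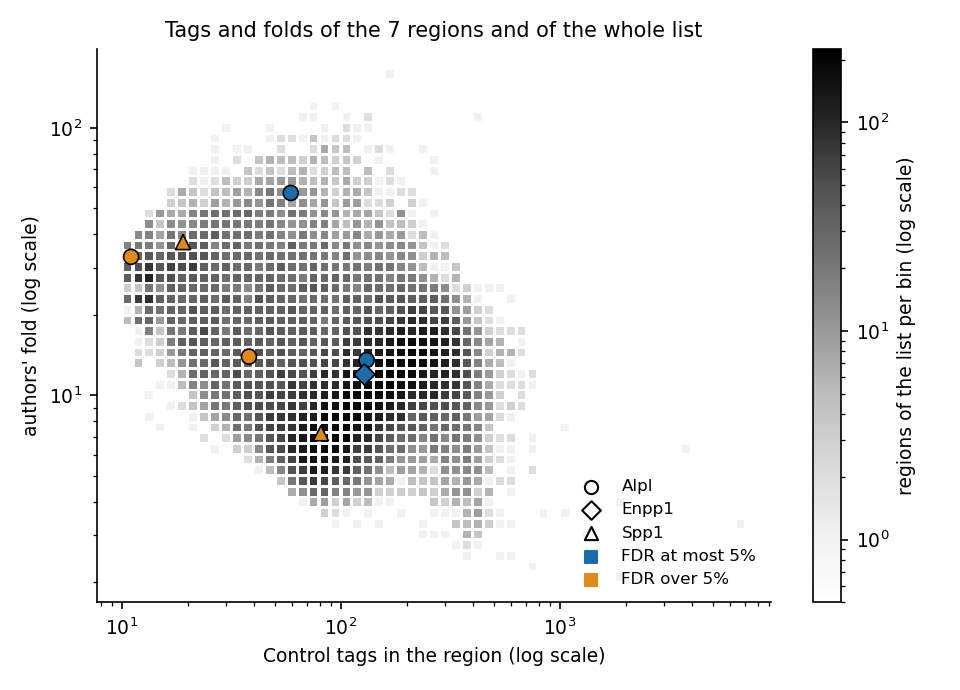
Control tags per region (x axis, log scale) and fold (y axis, log scale) for the 7 regions (Alpl circles, Spp1 triangles, Enpp1 diamond) over the whole list (grey, number of regions per bin). The Alpl region at 57.12-fold had 59 tags, and the regions with 11 and 19 tags, in orange, had an FDR over 5%.

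Counted by gene, the share stood below that of protein-coding genes in each way of counting. These ways use the same genes and overlapping sets of regions, so they are not separate observations. The shares were closest with 50 kb added on each side, at 6 of 8 genes against 80.2%. Limited to an FDR of at most 5%, 2 of 8 genes, Alpl and Enpp1, had a region in the window, against 50.9% of protein-coding genes. For the span alone it was also 2 of 8, Alpl and Spp1, against 38.2%. The 8 windows ran from 40.97 to 114.2 kb, beside a median of 57.17 kb for protein-coding genes. Among protein-coding genes whose window length lay within 10% of a gene's own, between 40.9% (for Bglap) and 82.9% (for Enpp1) had a region, and these shares add up to 5.14 of 8 genes, beside the 3 observed. Over the 501.4 kb of windows there were 1.4 regions per 100 kb, beside 2.09 over the windows of all protein-coding genes. Of genes with a window like that of Alpl, 17.1% had more than 4 regions, of those like Spp1, 15.6% had more than 2, and of those like Enpp1, 61.5% had more than 1. These figures describe 8 genes, 3 of them in 1 cluster, and no test of them was made.

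Of 23 other genes of mineralization, 15 (65.2%) had a region in the window, close to the 65.4% of protein-coding genes. Shares of genes of like window length add up to 16.0 of 23. A region with an FDR of at most 5% was found for 11 of the 23, beside 50.9% of protein-coding genes. Among those that move phosphate and pyrophosphate, Slc20a2, a phosphate transporter, had 8 regions, 5 of them within the gene. The largest fold of these, 22.09, came from 20 tags with an FDR of 100%, and the most tags, 210, from a region at 15.86-fold with an FDR of 0%. Ank, a membrane protein that takes part in pyrophosphate release, had 6, with 5 inside. The largest of these by tags had 384 at 6.97-fold and the next had 341 at 13.18-fold, both with an FDR of 0%. Nt5e, which makes adenosine from AMP, had 4 regions. Of these, 1 lay within the gene (215 tags, 8.63-fold, FDR 0.06%) and 1 of 46.24-fold 6036 bp upstream (76 tags, FDR 0%). The others lay downstream within Snx14, with 48 tags at 10.82-fold (FDR 95.26%) and 103 tags at 7.51-fold (FDR 3.73%). Abcc6, a transporter whose loss causes pseudoxanthoma elasticum, held 1 region (117 tags, 12.88-fold, FDR 0.15%). Slc20a1, the other phosphate transporter of the family, and Enpp3 had none in their windows.

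Genes of other roles had lower counts than Slc20a2 and Ank, whose windows were long, at 132.9 and 168.2 kb. Per 100 kb of window, Slc20a2 had 6.02 regions and Ank 3.57. Of the other roles, Panx2 with 5.5 and Bglap3 with 4.53 exceeded Ank, and the rest did not. The regions counted for Panx2 and Bglap3 all lay outside these genes, those of Bglap3 within Smg5, whereas most of Ank's lay within it. Fam20c, the kinase that phosphorylates SIBLING proteins, held 2 regions, of which the first (192 tags, 7.83-fold) had an FDR of 0.02%. Ahsg, which encodes the mineral-binding serum protein fetuin-A, held 1 (69 tags, 16.22-fold, FDR 1.03%). Of the annexins of matrix vesicles, Anxa6 held 2 (170 and 150 tags, 10.48-fold and 11.01-fold, FDR at most 0.04%), Anxa2 had 2 outside the gene and Anxa5 none. In all, 7 of the 23 had a region within the gene, against the 38.2% of protein-coding genes given above. Col10a1 and Sparc each had 1 region outside the gene with an FDR of 100%, and Mmp13 had none. The other pannexins split as well, with 3 regions around Panx2 and none around Panx1.

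**Figure D5:**
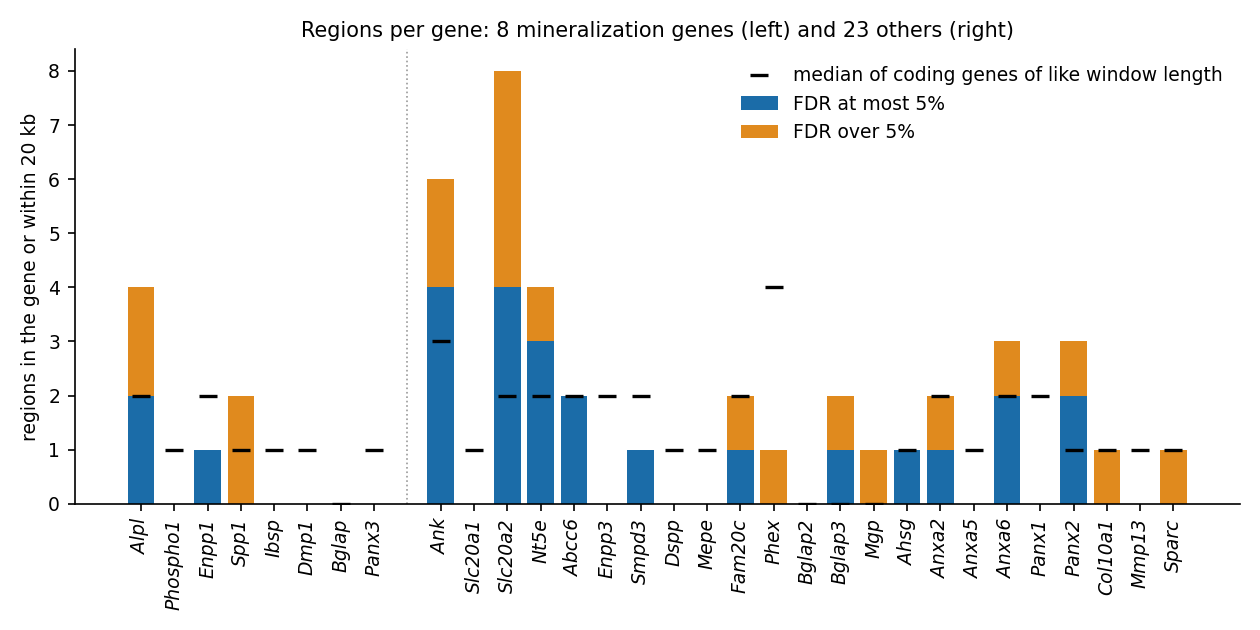
Regions in the gene or within 20 kb (bars, y axis) for the 8 mineralization genes (left of the dotted line) and the 23 others (right), split by FDR at 5%, with the median of protein-coding genes of like window length as black dashes. Slc20a2 with 8 and Ank with 6 have the most regions, and Alpl leads the 8 with 4.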

How the data were processed

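The authors called the regions of the deposited list with MACS 1.4.2, giving it Control reads as treatment and cKO reads as control, at a p limit of 1e-10, an effective genome size of 1870 Mb and at most 1 tag per position, per the file headers. Per the submitters' processing notes, coordinates refer to mm10. The aligner is not given in the sources used here. The deposited count of a region is of unscaled Control tags, and the deposited score is 10 times −log10 of the p. The fold is the ratio the authors' caller gave, and the deposited FDR is a percent.

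Regions overlapping a gene's span (GRCm38.p6) widened by 20 kb by at least 1 bp were counted for all 21887 protein-coding genes, with Python 3.11.15, pandas 2.3.3, NumPy 2.4.6, SciPy 1.17.1 and Matplotlib 3.10.9. The counting was tested on simulated data. All 8 genes were named with every region in their windows. Of the 23 others, those with a region in the gene were to be given by values and the rest by count. The values of the regions beside Nt5e and the remarks on genes without a region in the gene were added after the values were seen. The genes and lists were chosen with earlier results of these data known. With 1 library per genotype, no test was made. Alternatives were stricter p and FDR limits, other windows, summits in place of overlap, and joined regions.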

Additional observations from a re-analysis of the deposited data

How the results depend on the processing

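The number of regions around the 8 genes, 7, depended on the limits: it was 3 at a p of at most 1e-20, 3 at an FDR of at most 5%, 4 for the gene span alone and 21 with the span widened by 50 kb. The number of genes with a region was 3 and stood between 2 and 3 except with 50 kb, where it was 6. Beside it, the share of protein-coding genes was 60.7% at a p of at most 1e-15, 56.7% at 1e-20, 50.9% at an FDR of at most 5%, 38.2% for the span alone, 47.4% with 5 kb and 80.2% with 50 kb. The median fold of the regions was 35.19 for the span alone and 32.96 with 5 kb, over 4 and 5 regions. Both sets include the regions of 11 and 19 tags, with FDRs of 100% and 50.6%. At an FDR of at most 5% in the 20 kb windows, the median was 13.56. Of the 23 other genes, 7 had a region in the span alone. Counting by summit or joining regions within 500 bp left the counts of regions and of these genes as they were. For Alpl, Spp1 and Enpp1, 9 of 24 counts moved by over 1.5 times. For the 5 genes at 0 regions only the 50 kb window could give another count, and it did so for Phospho1, Bglap and Panx3. Both Spp1 regions were lost at a p of at most 1e-20 and at an FDR of at most 5%. Tag counts of 11 to 131 limit every region, and 1 library per genotype gives no replicate error.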
